A study of Mus musculus with 18 samples.

Results

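The circadian clock genes Per1, Per2, Per3, Cry1, Cry2, Arntl, Clock, Dbp, Nr1d1 and Nr1d2 were followed across an atlas of the mouse urinary bladder. The 10 genes were chosen by name, and all 10 were listed in the bulk table, which holds 29214 genes, and in each of the 8 cell and nuclei tables and 4 spatial tables. The atlas comprised 18 samples in 11 groups, all of strain C57BL/6 with no other allele or agent named. Bulk RNA came from intact bladder (3 libraries) and from bladder dissociated into cells (3 libraries), all from 12-month females. There were 5 single-cell libraries of whole bladder: 1 pooled from 3 males aged 22 months, 1 from 3 males aged 3 months, a pair at 12 months that each took 2 animals of each sex, and 1 at 24 months with the same sex mix. Nuclei were prepared once, at 12 months, again from 2 animals of each sex. One cell library held the detrusor layer (bladder wall muscle) of 3 females aged 14 months, and 1 a detrusor-enriched whole-bladder preparation at 14 months with 2 animals of each sex. Frozen sections on Visium slides, which capture RNA on a grid of barcoded spots, came from males only, 2 cut at 22 and 2 at 14 months. Cells of several animals were pooled in each droplet library, so no spread between animals was measured within one. For the bulk libraries and sections the labels give a number and sex of animals without saying whether they were pooled or separate animals, so the p-values measure only the spread between these samples, which may be technical. The hour at which the mice were killed and the light cycle are not given in the sources used here, and for genes with daily rhythms the hour and the group cannot be told apart wherever groups were collected separately.

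The mammalian clock is a transcription loop that runs in nearly every cell. CLOCK and BMAL1, the product of Arntl, bind E-box sequences and activate the Period genes (Per1, Per2, Per3), the Cryptochrome genes (Cry1, Cry2), Nr1d1, Nr1d2 and Dbp; the PER and CRY proteins then repress CLOCK and BMAL1. REV-ERBalpha and REV-ERBbeta, the products of Nr1d1 and Nr1d2, repress Arntl through ROR elements, and DBP activates genes that carry D-boxes, together with its relatives HLF and TEF and against the repressor NFIL3. In mouse tissues Arntl and Dbp transcripts peak at opposite times of the day. Per1 is in addition an immediate-early gene that responds to cyclic AMP, serum and glucocorticoids. Bladder capacity and the interval between voids vary with the time of day in mice, and clock genes cycle in the bladder wall.

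RefSeq promoter windows (build GRCm38.p6, the 250 bases before an annotated start) were found for 9 of the 10 genes, with Per2 unmatched. They were searched on both strands for 6 motifs: the E-box CACGTG, the E'-box CACGTT, the cyclic AMP response element TGACGTCA, the D-box TTATGTAA or TTACGTAA, the ROR element core TAGGTCA or TGGGTCA, and the glucocorticoid response element. None of these spellings contains another. The 4 windows below are shown because their genes carry the results that follow: Per1 differed between bulk groups, Per3 between nuclei and cells, Cry1 (with Arntl and Per2) between urothelial-like and fibroblast-like cells, and Nr1d1 between muscle-rich and urothelium-rich spots. Each is written 5′ to 3′ on the strand of its gene, and capitals mark an E-box, an E'-box (read as AACGTG where it lies on the other strand) or a D-box.
Per1, first of 2 windows, chr11:69098699-69098948, plus strand: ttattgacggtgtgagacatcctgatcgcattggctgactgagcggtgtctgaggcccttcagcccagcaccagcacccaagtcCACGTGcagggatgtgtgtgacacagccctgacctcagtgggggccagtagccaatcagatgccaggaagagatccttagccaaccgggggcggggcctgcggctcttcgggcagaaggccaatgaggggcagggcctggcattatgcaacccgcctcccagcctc
Per3, chr4:151044666-151044915, minus strand: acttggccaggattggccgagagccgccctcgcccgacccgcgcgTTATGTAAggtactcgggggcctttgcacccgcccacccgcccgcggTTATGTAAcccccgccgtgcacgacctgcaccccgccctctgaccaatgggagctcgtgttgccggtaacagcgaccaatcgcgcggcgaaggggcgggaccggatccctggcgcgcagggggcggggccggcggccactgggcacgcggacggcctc
Cry1, chr10:85185055-85185304, minus strand: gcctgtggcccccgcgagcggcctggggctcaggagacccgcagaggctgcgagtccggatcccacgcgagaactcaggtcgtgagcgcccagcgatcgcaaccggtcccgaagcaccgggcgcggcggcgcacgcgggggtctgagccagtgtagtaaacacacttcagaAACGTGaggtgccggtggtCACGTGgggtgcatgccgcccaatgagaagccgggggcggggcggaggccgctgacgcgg
Nr1d1, chr11:98775378-98775627, minus strand: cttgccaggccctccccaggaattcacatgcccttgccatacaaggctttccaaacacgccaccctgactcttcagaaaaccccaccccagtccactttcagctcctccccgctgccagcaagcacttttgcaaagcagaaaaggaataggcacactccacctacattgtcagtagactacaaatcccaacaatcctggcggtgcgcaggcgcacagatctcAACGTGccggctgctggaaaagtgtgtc

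An E-box lay 166 bases before the start in the first Per1 window and 60 bases before it in the Cry1 window. E'-boxes lay in the windows of Cry1 (79 bases before the start), Cry2 (166) and Nr1d1 (28), and Per3 held a D-box at 205 and again at 158 bases. The 9 genes have 13 windows, since Per1 and Arntl have 2 each and Clock has 3. The E-box was thus found in 2 of 13 windows against 6.02% of the 32851 windows in the table, the E'-box in 3 of 13 against 3.85%, and the D-box in 1 of 13 against 0.931%. No window of these genes held the cyclic AMP element, the ROR core or the glucocorticoid element in these spellings, which occurred in 1.55%, 5.38% and 0.387% of all windows. These are letters in short windows, not binding sites. Several of the genes share bases with a neighbour in the annotation: Per3 (chromosome 4, 150997018 to 151044707) shares 4714 bases with Uts2 on the other strand, Dbp (chromosome 7, 45705100 to 45710203) 741 with Sphk2, Nr1d1 (chromosome 11, 98767932 to 98775377) 1075 with Thra, and Per2, Cry2, Arntl and Clock share bases with non-coding RNA genes. Whether the reads were counted by strand is not given in the sources used here, so reads from such pairs cannot be told apart. Per1 (chromosome 11, 69095108 to 69109965), Cry1 and Nr1d2 share no bases with another listed gene.

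Depth was 23083752 to 68760791 reads in the bulk libraries and 5197910 (nuclei) to 55374101 UMIs (unique molecular identifiers, each counting 1 captured RNA molecule) in the others. Levels are CPM, counts per 1000000 counts of the library or class. They are not divided by transcript length, so levels are compared between samples for 1 gene and not between genes. At most 1.00% of the barcodes of the smaller library (64 barcodes, between the 3- and 22-month libraries) were shared between 2 droplet libraries. The labelled preparations were checked with marker genes: all 3 intact bulk libraries held 41545 to 43337 CPM of 10 smooth muscle markers, and the dissociated libraries 2245 to 3388 CPM.

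Between intact and dissociated bladder, Per1 differed most of the 10 genes. Per1, the Period gene that also responds to acute signals, stood at 30.0, 39.2 and 59.0 CPM in the 3 intact libraries and at 212, 237 and 219 CPM in the 3 dissociated libraries. All 3 dissociated libraries lay above all 3 intact ones, and the fitted difference was 5.62-fold (log2 2.49, SE 0.22, adjusted p 8.26e-05; edgeR quasi-likelihood test, Benjamini-Hochberg adjustment over all genes, two-sided, threshold 0.05). Per2 rose from 41.8, 39.9 and 45.7 CPM to 72.8, 70.7 and 83.0 CPM, which was 1.92-fold with no overlap (log2 0.94, SE 0.10, adjusted p 1.48e-04). Per3 went the other way. It measured 50.8, 57.5 and 43.2 CPM in intact tissue and 38.1, 36.0 and 32.3 CPM after dissociation (log2 -0.40, SE 0.12, adjusted p 0.0184). The Per3 call was lost, at adjusted p 0.0538 to 0.0633, without intact replicate 1, intact replicate 2 or dissociated replicate 2.

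**Figure D1:**
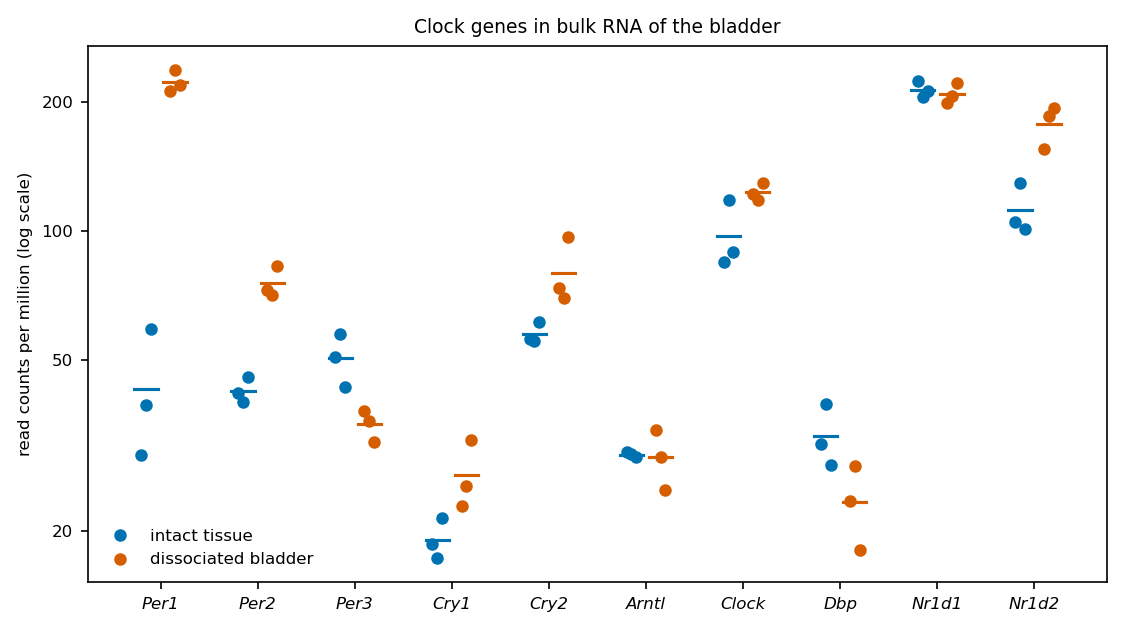
Levels of the 10 clock genes in 6 bulk RNA libraries of 12-month females, in CPM on a log axis; points are libraries (3 intact, 3 dissociated) and bars the group means. Per1 lies at 30.0 to 59.0 in intact tissue and at 212 to 237 after dissociation, while Arntl and Nr1d1 overlap between the groups.

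Both Cryptochrome genes, which encode repressors of the loop, rose. Cry1 moved from 18.6, 17.3 and 21.4 to 22.9, 25.5 and 32.5 CPM (log2 0.61, SE 0.15, adjusted p 0.00984), and Cry2 from 55.9, 55.5 and 61.2 to 73.5, 69.8 and 96.6 CPM (log2 0.59, SE 0.14, adjusted p 0.00695). Neither gene's groups overlapped.

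Of the activators, Arntl measured 30.5, 30.2 and 29.7 CPM in intact tissue and 34.3, 29.8 and 24.9 CPM in dissociated bladder, with overlapping groups and a log2 difference of 0.09 (95% interval -0.18 to 0.36, adjusted p 0.529). The interval leaves room for differences of that size in either direction. Clock measured 84.5, 118 and 89.5 CPM against 122, 118 and 129 CPM; the groups touched at 118 CPM and the difference passed the test (log2 0.45, SE 0.13, adjusted p 0.0189). It no longer did without intact replicate 1 (adjusted p 0.0739) or intact replicate 3 (0.0732), or when only library size was used for scaling (0.0540).

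The REV-ERB pair differed between its 2 members. Nr1d1 measured 223, 205 and 212 CPM in intact tissue and 198, 206 and 221 CPM after dissociation, in overlapping ranges (log2 0.07, 95% interval -0.12 to 0.27, adjusted p 0.468). Nr1d2 rose from 105, 129 and 101 to 155, 185 and 193 CPM without overlap, 1.72-fold (log2 0.78, SE 0.12, adjusted p 0.00119). The difference between the responses of Nr1d1 and Nr1d2 was not tested. Dbp, the output activator, measured 31.8, 39.5 and 28.5 CPM in intact tissue and 23.5, 28.3 and 18.1 CPM after dissociation. Every dissociated library lay below every intact one, and the difference missed the threshold (log2 -0.41, 95% interval -0.81 to -0.01, adjusted p 0.0735). It passed in 3 of 11 alternatives, among them library size alone (log2 -0.52, adjusted p 0.0390) and leaving out dissociated replicate 2 (-0.53, 0.0333).

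In total 7 of the 10 genes passed the test, 6 higher and 1 lower. Most genes differed between the groups: 59.2% of the 16538 genes tested passed, 27.9% higher and 31.3% lower. Groups did not overlap for 7 of the 10, 5 higher and 2 lower, against 67.9% of all genes (25.6% higher, 42.3% lower). The median log2 difference was 0.52 over the 10 genes and -0.03 over all genes tested, or -0.14 with library size alone.

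Among 21 further genes of the clock, 11 rose and 3 fell, with a median log2 difference of 0.49. The largest rises were in the repressor genes Nfil3 and Bhlhe40, but not every repressor gene rose. Bhlhe41, which encodes the E-box repressor DEC2, was called lower and is named after its values were seen. Its log2 difference was -0.57 to -0.34 over 11 alternatives, past the threshold in all 11. Nfil3, the repressor of D-boxes, went from 7.54, 6.30 and 10.0 to 92.2, 90.6 and 97.5 CPM (log2 3.68, SE 0.17, adjusted p 3.36e-06), and Bhlhe40, which encodes the E-box repressor DEC1, from 48.3, 40.0 and 48.7 to 362, 342 and 342 CPM (log2 3.05, SE 0.11, adjusted p 1.22e-06). Hlf, an activator of D-boxes like Dbp, fell from 41.0, 42.5 and 35.4 to 15.5, 18.6 and 13.1 CPM (log2 -1.22, SE 0.13, adjusted p 1.79e-04). The cell cycle kinase gene Wee1, the deubiquitinase gene Usp2 and Timeless rose by log2 1.86, 1.81 and 1.73 (SE 0.19, 0.15 and 0.13). Of the genes that act on D-boxes, the repressor Nfil3 was thus higher and the activator Hlf lower. The activator Dbp was lower without passing the test, as given above, and the activator Tef, named after its values were seen, at 142 to 172 CPM in intact and 130 to 142 CPM in dissociated libraries, was not called either.

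Other signals moved with these values. All 10 immediate-early genes of a list holding Fos, Jun and their relatives rose, from a summed 226 to 381 CPM in intact tissue to 14880 to 19158 CPM, and 3 of 6 glucocorticoid-responsive genes rose, from a summed 241 to 286 CPM to 891 to 1009 CPM. The makeup of the RNA shifted as well: fibroblast markers went from 13301 to 16407 CPM to 24361 to 36112 CPM beside the fall of smooth muscle markers given above, and urothelial markers from 6654 to 7718 CPM to 4799 to 6932 CPM. In bulk RNA, fewer cells of a type and less RNA per cell cannot be told apart, and the part of these shifts in the clock gene values was not tested.

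The single-cell libraries of whole bladder, all made from dissociated tissue, differed from each other most in Per2, Arntl, Dbp and Cry1. Summed over all cells, Per2 measured 7.23 CPM at 3 months, 14.3 and 11.8 CPM in the 2 libraries of 12 months, 2.54 CPM at 22 months and 19.1 CPM at 24 months, a 7.52-fold range. Arntl spanned 5.42-fold, from 2.40 CPM in the first 12-month library to 13.0 CPM at 22 months. Dbp spanned 5.35-fold, from 26.0 CPM in the second 12-month library to 139 CPM at 3 months. The 2 libraries of 12 months, which share age and sex mix, differed in Dbp by themselves, at 79.3 and 26.0 CPM. Per2, Arntl and Cry1 split by sex mix without overlap. Cry1 measured 23.1 and 15.6 CPM in the 3- and 22-month male libraries against at most 5.58 CPM in the mixed ones. Arntl was likewise higher and Per2 lower in the male libraries. Those libraries also list fewer genes (27775 against 27998) and had lower median depths (1798 and 2440 against 10367 to 15752 UMIs per cell). Sex and these features cannot be told apart. The share of all genes that split so was not counted. Clock, whose transcript is known to cycle weakly in most tissues, stayed within 27.6 to 34.2 CPM, a 1.24-fold range. The makeup of these libraries differed too: fibroblast-like cells were 15.2% to 59.6% and urothelial-like cells 13.6% to 71.8% of the cells kept, and fibroblast markers summed to 1914 to 39833 CPM. Within the fibroblast-like and the urothelial-like class, the range of Arntl was 2.91-fold and 3.96-fold, that of Cry1 4.63-fold and 2.84-fold against 4.83-fold over all cells, that of Dbp 3.80-fold and 4.39-fold, and that of Per2 4.76-fold and 5.05-fold. These 4 genes had the widest ranges over all cells, and their ranges were narrower within either class. The other 6 ranged more widely within the fibroblast-like class than over all cells: Cry2 5.96-fold against 2.28-fold, Per3 4.01 against 2.86, Per1 3.52 against 1.81, Nr1d2 3.11 against 2.12, Nr1d1 2.58 against 1.47 and Clock 1.63 against 1.24. Within the urothelial-like class Cry2 (1.46-fold), Per3 (2.33) and Nr1d2 (1.41) ranged less widely than over all cells. Per1 (1.92), Nr1d1 (1.75) and Clock (1.38) ranged more widely there. The part of the makeup in these ranges was not tested.

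The 2 detrusor libraries held more Dbp and Nr1d1 RNA than any whole-bladder cell library, and also more Per1, Per3, Cry2, Clock and Nr1d2. Per1 measured 76.9 and 36.6 CPM in the detrusor-only and detrusor-enriched library, against at most 33.7 CPM in whole bladder. Per3 measured 39.2 and 61.9 against at most 26.7 CPM, and Cry2 58.1 and 40.1 against 34.6 CPM. Clock measured 43.6 and 52.6 against at most 34.2 CPM, and Nr1d2 67.6 and 83.6 against 36.5 CPM. The share of all genes that did so was not counted. Dbp measured 259 CPM in the detrusor-only and 243 CPM in the detrusor-enriched library, against at most 139 CPM in whole bladder, and Nr1d1 284 and 176 CPM against at most 80.4 CPM. They also held less urothelial RNA, with the 12 urothelial markers at 227 CPM (1 of them at 0) and 3544 CPM against 5578 to 14764 CPM, and more smooth muscle RNA, with 7650 and 2754 CPM of its 10 markers against 68.6 to 1883 CPM. In fibroblast-like cells alone the gap in Dbp was smaller, at 294 and 338 CPM against at most 221 CPM, and Nr1d1 measured 352 and 234 CPM against at most 131 CPM. The preparation, age, sex and collection of these single libraries cannot be told apart. In the nuclei library Per3 measured 221 CPM and Clock 164 CPM, above every cell library and section (at most 61.9 and 52.6 CPM). Cry2 and Nr1d2 were highest there as well, at 81.0 and 117 CPM against at most 58.1 and 86.6 CPM. Per2 was too, at 34.8 against at most 33.4 CPM, within counting error. The share of all genes that were highest in the nuclei was not counted over whole libraries. Within classes, the nuclear value lay above the whole-bladder cell libraries for 49.6% of all genes in fibroblast-like and 59.0% in urothelial-like sums.

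**Figure D2:**
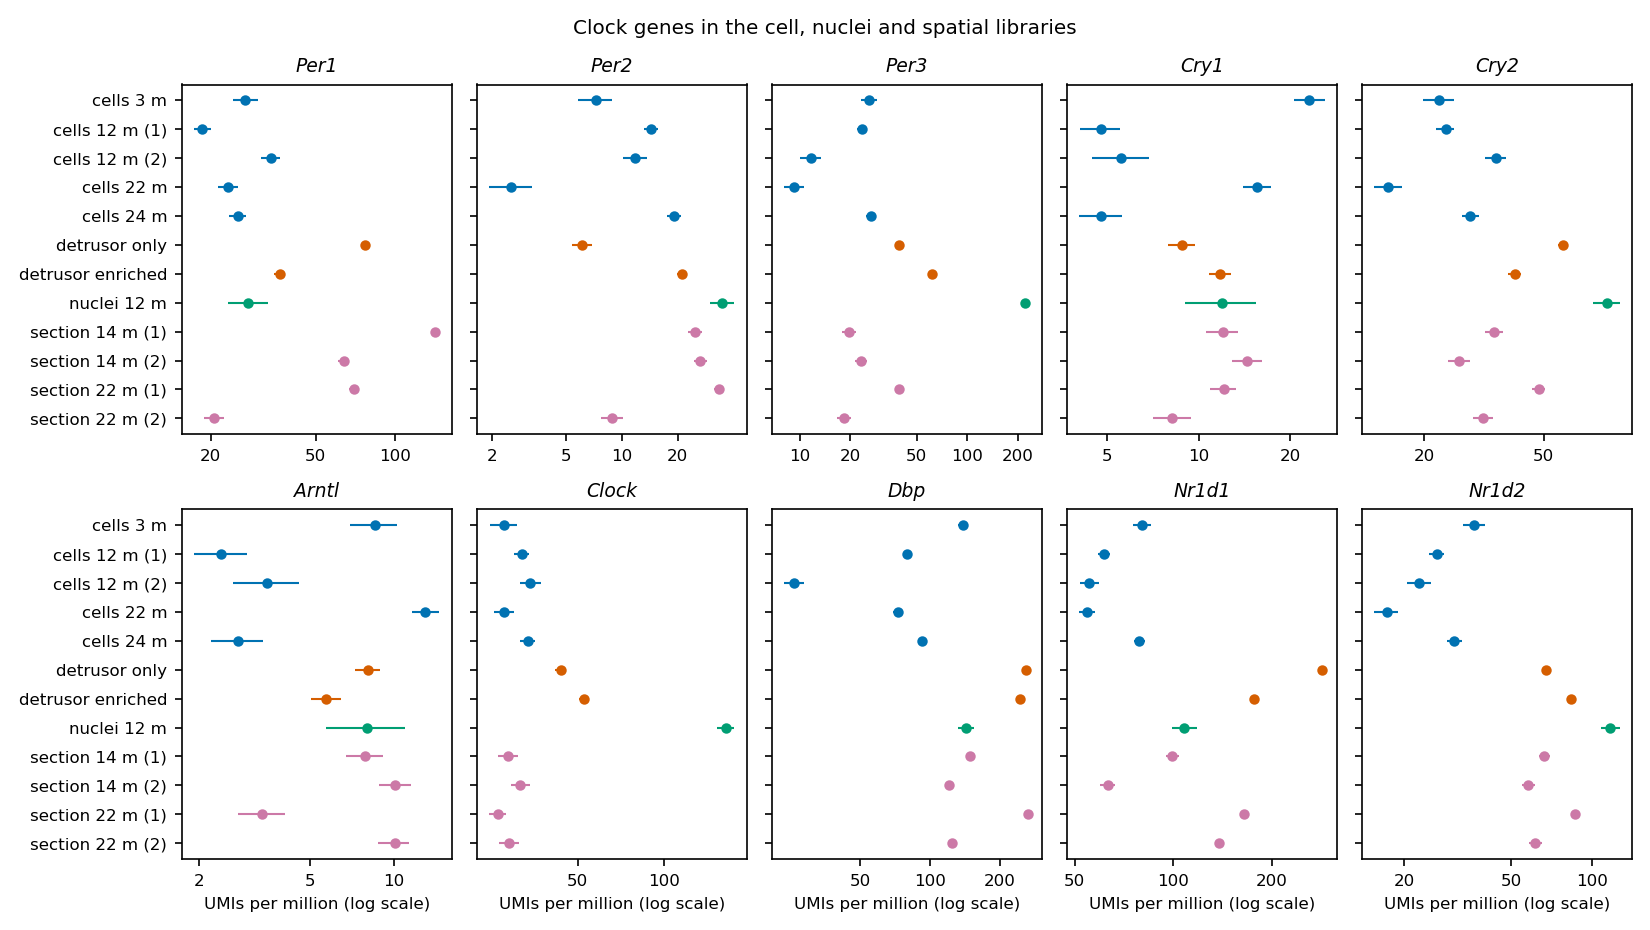
Level of each clock gene in 12 cell, nuclei and spatial libraries, in CPM on a log axis whose range differs between panels; points are whole libraries and bars 95% Poisson intervals, which cover counting error only. Per2, Per3, Cry2, Clock and Nr1d2 are highest in the nuclei library. Per1, Per3, Cry2, Clock, Dbp, Nr1d1 and Nr1d2 are higher in both detrusor libraries than in any whole-bladder cell library. The share of all genes with either pattern was not counted. Clock varies least among the cell libraries.

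Fibroblast-like and urothelial-like cells of the same whole-bladder libraries differed in 4 of the 10 clock genes. Cells were grouped by clustering without the clock genes, and a class is called after the marker genes it carries; the fibroblast-like sums rest on 145 to 4484 cells and the urothelial-like sums on 681 to 1961 cells. Since both classes of a library were collected together, the hour of collection is shared within each pair. Libraries are given in the order 3 months, first and second of 12 months, 22 months and 24 months.

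Arntl was lower in urothelial-like cells, at 4.41, 2.13, 2.86, 5.86 and 1.48 CPM, than in fibroblast-like cells, at 11.7, 6.02, 15.1, 17.5 and 9.32 CPM. The 2 classes did not overlap (log2 -1.60, SE 0.23, adjusted p 4.67e-04, lower in 5 of 5 libraries). Cry1 was lower as well, at 11.4, 4.46, 4.70, 6.28 and 4.01 CPM against 31.6, 6.82, 15.1, 21.1 and 9.32 CPM (log2 -1.06, SE 0.22, adjusted p 0.00283, lower in 5 of 5). Per2 was higher in urothelial-like cells, at 10.4, 16.2, 12.0, 4.40 and 22.2 CPM against 5.83, 7.62, 10.8, 2.27 and 7.55 CPM (log2 1.31, SE 0.22, adjusted p 0.00107, higher in 5 of 5). These 3 differences passed under each of 13 alternative settings. Within each class Per2 was lowest in the 22-month library, where Arntl was highest.

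Dbp was lower in urothelial-like cells in 4 of 5 libraries, at 104, 70.2, 23.7, 84.6 and 80.5 CPM against 187, 221, 58.1, 74.3 and 181 CPM (log2 -0.65, SE 0.23, adjusted p 0.0408). The exception was the 22-month library. The call held in 6 of 13 alternatives and was lost at adjusted p 0.0681 to 0.0850 when the 3-month, the 24-month or either 12-month library was left out. By CPM, that 22-month library also stood apart for Per1, Per3, Cry2, Nr1d1 and Nr1d2: all were higher in its urothelial-like cells (Nr1d1 95.5 against 50.7 CPM, Nr1d2 31.4 against 14.7 CPM), whereas in the 4 other libraries these genes were lower there. This split depends on the scale, since the fits rescale each sum (TMM). Their log2 difference was positive in 10, 11 and 10 of 13 alternatives for Per1, Per3 and Nr1d2. For Cry2 it was positive in 7 and for Nr1d1 in 3. None of these 5 genes nor Clock passed the test, and without the 22-month library Nr1d1 did, as lower in urothelial-like cells (log2 -0.43, adjusted p 0.0127). An unnamed cluster of the 22-month library with fibroblast markers was not part of its fibroblast-like sum; with it added, Dbp there was 76.8 CPM and Nr1d1 50.2 CPM.

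**Figure D3:**
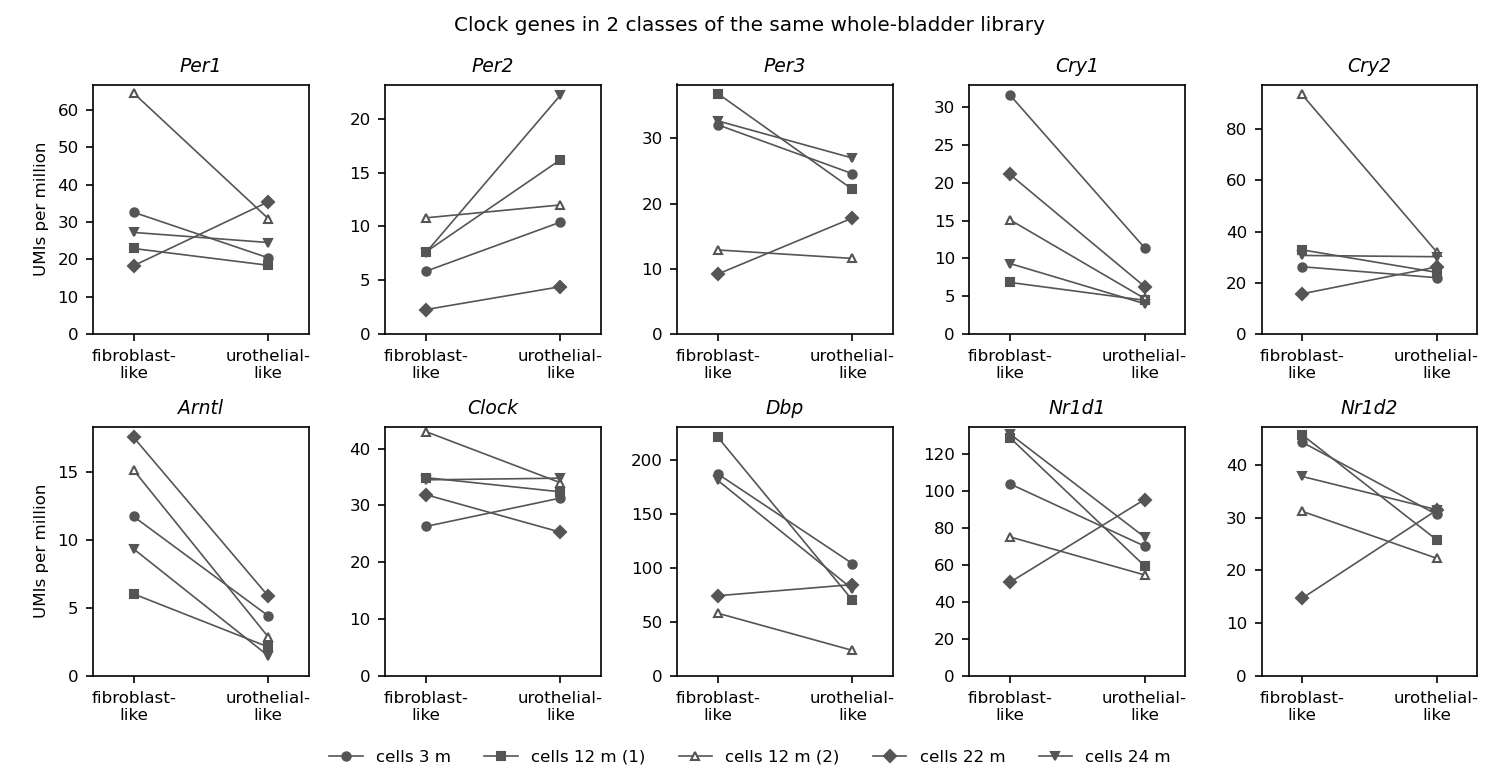
Clock gene levels in fibroblast-like and urothelial-like cells of 5 whole-bladder libraries, in CPM from 0; each line joins the 2 classes of 1 library. Arntl and Cry1 lines fall and Per2 lines rise in 5 of 5 libraries, and the 22-month library runs against the other 4 for Dbp, Nr1d1 and Nr1d2.

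The 4 called genes (1 higher, 3 lower) compare with 66.8% of the 11808 genes tested, 34.5% higher and 32.3% lower, so calls were not more frequent among the clock genes than among all genes. With library size alone, the share of called genes that were higher in urothelial-like cells moved from 51.6% to 36.7% and the median of all genes from 0.06 to -0.24. Only Arntl had classes that did not overlap, against 37.9% of all genes (14.5% higher, 23.5% lower). Of the 19 further clock genes tested, 2 were higher and 8 lower in urothelial-like cells. Rora, which encodes an activator of Arntl through the element that REV-ERBs repress, averaged 14.6 CPM in urothelial-like against 81.3 CPM in fibroblast-like cells (log2 -2.14, SE 0.13, adjusted p 6.30e-06). Hlf averaged 0.194 CPM in urothelial-like and 11.6 CPM in fibroblast-like cells (log2 -5.23, SE 0.36, adjusted p 1.00e-05). Usp2 was lower by log2 -2.98 and Bhlhe40 by -1.50, and Wee1 higher by 2.81. Immediate-early genes moved with the class too, at a summed 5154 to 12339 CPM in urothelial-like and 21918 to 27872 CPM in fibroblast-like cells (7 of 10 genes lower), and 5 of 6 glucocorticoid-responsive genes were lower and 1 higher; their part was not tested. RNA of the other class was present at a low level: the 12 urothelial markers summed to 477 to 1675 CPM in fibroblast-like and 13878 to 25208 CPM in urothelial-like cells.

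The detrusor-enriched and nuclei libraries, which this test did not use, also hold both classes. Per2 was higher in urothelial-like cells in both, at 33.9 CPM against a fibroblast-like interval of 16.3 to 19.7 CPM in the detrusor-enriched cells, and at 40.4 CPM (94 UMIs) against 35.8 CPM (15 UMIs, with an interval reaching 59.0 CPM) in the nuclei. The 2 values in the nuclei thus lay within counting error, and over these 2 and the 5 whole-bladder libraries the intervals of the classes lay apart in 3 of 7. Arntl did not follow, at 7.20 against 4.34 CPM in the detrusor-enriched cells and 10.3 against 4.77 CPM in the nuclei, the last resting on 24 and 2 UMIs. Cry1 was 9.24 against 11.5 CPM in the detrusor-enriched cells and lay between 10.5 and 20.9 CPM (95% interval, 35 UMIs) against 2.38 CPM (1 UMI) in the nuclei. Dbp was lower in urothelial-like cells in both, at 68.3 against 338 CPM and 112 against 281 CPM.

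Immune-like classes held less Dbp and Nr1d1 RNA than the fibroblast-like cells of the same library. Each class of a library is 1 sum, so the following are counts of libraries whose 95% Poisson intervals lay apart, which cover counting error only. Macrophage-like cells had less Dbp than fibroblast-like cells in 7 of 7 libraries, at 9.06 to 94.6 CPM against 58.1 to 338 CPM, with intervals apart in all 7. In the second 12-month library this class is 1 cluster of 67 cells led by antigen presentation genes (Cd74, H2-Aa, H2-Ab1 and H2-Eb1) and Lyz2, with no C1q gene among its 10 leading genes and no separate dendritic-like class; without it the count was 6 of 6, apart in 6, at 15.3 to 94.6 CPM. The same held for Nr1d1, at 7.66 to 126 against 50.7 to 352 CPM, apart in all 7 (6 of 6 without that cluster). Per3, Cry2 and Nr1d2 were lower in macrophage-like cells in 7 of 7 libraries, with intervals apart in 5, 6 and 6, or 5, 5 and 5 of 6 without that cluster. Per2 was lower in 7 of 7, with intervals apart in 1, and Clock and Cry1 in 6 of 7, apart in 4 and 2. Per1 was not lower: it was higher in 4 and lower in 3 of 7, that cluster among the 3. Arntl was likewise higher in 4 of 7, with intervals apart in 2, and measured 47.8 CPM in the nuclei, on 3 UMIs, and 20.4 CPM in the detrusor-only library against 7.34 CPM in fibroblast-like cells.

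Dendritic-like cells had little of either RNA, with Dbp at 6.90 to 15.2 CPM and Nr1d1 at 0 to 14.0 CPM in 5 libraries. Both were below fibroblast-like cells with intervals apart in 5 of 5, as were Per3 and Nr1d2. Cry2, Clock, Arntl and Per2 were also lower in 5 of 5, with intervals apart in 4, 3, 1 and 0. Cry1 was lower in 4 of 5, and Per1 was higher in 3 of 5. The share of all genes lower in the immune-like classes was not counted. Cells like T or NK cells combined low Dbp (24.8 to 65.8 CPM, lower in 4 of 4 libraries, apart in 4) with more Cry1 (24.8 to 68.0 against 7.43 to 31.6 CPM) and more Arntl (15.1 to 35.4 against 4.34 to 17.5 CPM) than the fibroblast-like cells of the same library. Cry1 and Arntl were higher in 4 of 4 libraries, with intervals apart in 1 and 2, and rested on 7 to 17 and 2 to 13 UMIs. Nr1d1 was lower in these cells in 4 of 4 libraries, apart in 3.

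The contractile classes could be read mainly in the detrusor libraries and the nuclei. Smooth-muscle-like cells had less Nr1d1 than fibroblast-like cells in 3 of 3 libraries (119 to 176 against 217 to 352 CPM, intervals apart in 3) and less Dbp in 3 of 3 (154 to 275 against 281 to 338 CPM, apart in 2). A cluster of 55 cells with muscle genes in the second 12-month library was left out after its values had been seen, in a library with 68.6 CPM of smooth muscle markers in all; it had Nr1d1 at 76.0 and Dbp at 39.2 CPM against 75.3 and 58.1 CPM. Pericyte-like cells held more Cry2 than fibroblast-like cells, at 108 and 120 CPM in the detrusor-only and detrusor-enriched libraries against 62.0 and 36.6 CPM. Smooth-muscle-like cells, at 70.5 to 84.9 CPM, also held more Cry2 than fibroblast-like cells in 2 of 3 libraries, with intervals apart in 2. Per1 too was higher in pericyte-like than in fibroblast-like cells, at 84.0 and 75.8 against 61.0 and 31.2 CPM. High Per1 was not particular to pericyte-like cells: its highest library value was 155 CPM in macrophage-like, 150 CPM in dendritic-like and 119 CPM in blood-endothelial-like cells. Blood-endothelial-like cells had more Per2 than fibroblast-like cells in 5 of 5 libraries, with intervals apart in 1. Schwann-like cells had Nr1d1 at 227 and 339 CPM, against 352 and 234 CPM in fibroblast-like cells of the same 2 libraries, so the order reversed between the libraries.

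**Figure D4:**
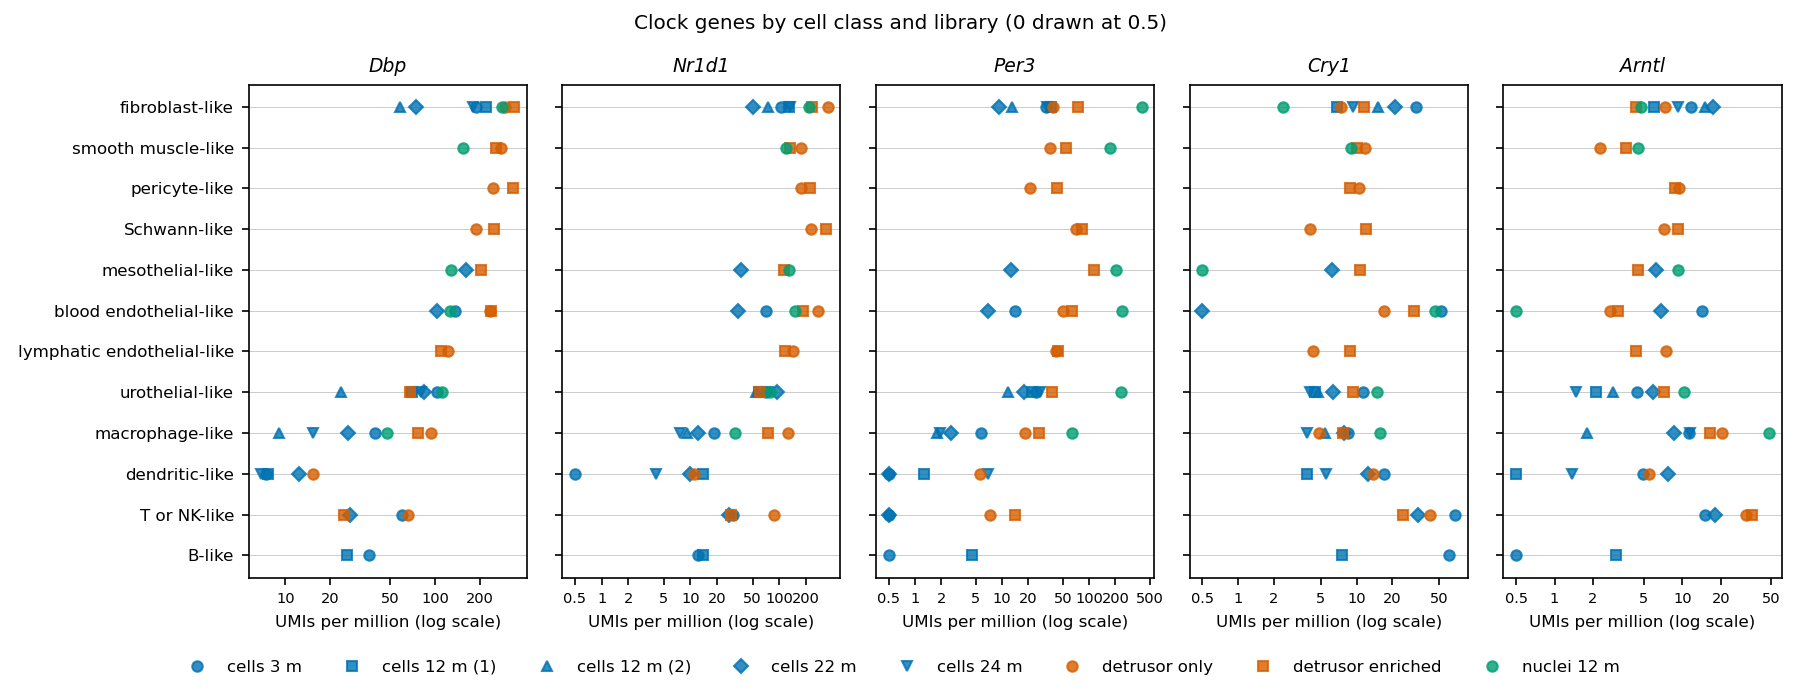
Dbp, Nr1d1, Per3, Cry1 and Arntl by cell class in 5 whole-bladder, 2 detrusor and 1 nuclei library, in CPM on a log axis with 0 drawn at 0.5; each point is the sum of 1 class in 1 library. Dbp and Nr1d1 points of the macrophage-like and dendritic-like classes lie left of the fibroblast-like point of the same library.

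Nuclei held more Per3 RNA than cells of the same class. In fibroblast-like nuclei Per3 measured 398 CPM (167 UMIs), against 32.1, 36.9, 12.9, 9.20 and 32.7 CPM in the 5 whole-bladder cell libraries, in the order above. In urothelial-like nuclei it measured 232 CPM (540 UMIs) against 24.6, 22.2, 11.6, 17.8 and 27.0 CPM. Both differences passed (fibroblast-like log2 3.08, SE 0.62, adjusted p 0.0141; urothelial-like log2 2.29, SE 0.42, adjusted p 0.00736) and passed under each of 13 alternatives. These fits have 1 nuclei library and assume that it varies like the cell libraries. The fitted differences are relative to other genes and smaller than the ratio of the CPM values: with library size alone as the scale, the median of all genes was higher in nuclei by log2 0.56 in the fibroblast-like and 1.13 in the urothelial-like class, against -0.33 and -0.03 as fitted. The share of called genes that were higher in nuclei then moved from 35.1% to 84.0% and from 45.7% to 89.5%.

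Clock was higher in urothelial-like nuclei, at 202 CPM against 25.3 to 34.8 CPM (log2 1.44, SE 0.40, adjusted p 0.0314; 0.0549 without the first 12-month library). In fibroblast-like nuclei it measured 150 CPM against 26.3 to 43.0 CPM and missed the threshold (log2 1.23, adjusted p 0.0621). It passed there in 6 of 13 alternatives: DESeq2 (adjusted p 0.0372), RLE size factors (0.0360), library size alone (0.00443), only the 12-month cell libraries (0.0217), doublets kept (0.0465) and leaving out the second 12-month library (0.0418). Nr1d2 was higher in urothelial-like nuclei, at 122 against 22.3 to 31.5 CPM (log2 0.91, SE 0.29, adjusted p 0.0461), a call that held in 7 of 13 alternatives and was lost without the 22-month, the 3-month or either 12-month library. Nr1d1 was called lower there relative to the shift of other genes (log2 -1.03, SE 0.32, adjusted p 0.0460), although its 78.2 CPM lay within the 54.7 to 95.5 CPM of the cells. With library size alone as the scale that direction turned (log2 0.14, adjusted p 0.786), and the call held in 8 of 13 alternatives. It was lost without the 22-month, the 24-month or either 12-month library. Dbp, at 281 CPM in fibroblast-like nuclei and 112 CPM in urothelial-like nuclei, was not called in either class. Per1 lay within the range of the cells in both, at 35.8 against 18.3 to 64.5 CPM in fibroblast-like and 25.8 against 18.4 to 35.4 CPM in urothelial-like sums. Relative to other genes, its log2 difference in urothelial-like nuclei was positive in 0 of 13 alternatives. It was lowest, at -1.35, against the 12-month cell libraries alone. Per2 and Cry2 lay above the range of the cells and were not called: Per2 measured 35.8 CPM against 2.27 to 10.8 CPM and 40.4 against 4.40 to 22.2 CPM, and Cry2 107 against 15.7 to 93.6 CPM and 87.2 against 22.0 to 32.1 CPM. In fibroblast-like nuclei Nr1d1 (217 against 50.7 to 131 CPM) and Nr1d2 (176 against 14.7 to 45.7 CPM) were not called, nor were Arntl (10.3 against 1.48 to 5.86 CPM) and Cry1 (35 UMIs, 95% interval 10.5 to 20.9 CPM, against 4.01 to 11.4 CPM) in urothelial-like nuclei. Nr1d2 passed in 3 of its 13 alternatives.

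In fibroblast-like cells 1 of 10 clock genes was called, higher in nuclei, against 23.9% of 12436 genes (8.40% higher, 15.5% lower). In urothelial-like cells 3 were called higher and 1 lower, against 35.3% of 13240 genes (16.1% higher, 19.2% lower). The nuclear value lay outside the range of the cell libraries for 9 of 10 genes in the fibroblast-like class (7 above, 2 below), against 73.5% of all genes there (49.6% above, 23.9% below). It did for 8 of 10 in the urothelial-like class, all above, against 74.6% (59.0% above, 15.6% below). The 2 below were Cry1 and Arntl, at 2.38 and 4.77 CPM, which were 1 and 2 UMIs. Of 21 further clock genes, 2 were called in fibroblast-like nuclei, both higher: Tef (411 against a mean of 36.7 CPM, log2 2.59, SE 0.58, adjusted p 0.0184) and Arntl2, which encodes a relative of BMAL1 (log2 2.38, SE 0.56, adjusted p 0.0208). Both were higher in urothelial-like nuclei too (log2 1.55 and 2.80), together with Hlf and Btrc, while Nfil3 (log2 -3.63) and Bhlhe40 (-2.41) were lower. The Hlf and Btrc calls held in only 7 and 8 of 13 alternatives. Immediate-early genes were lower in the nuclei for 10 of 10 in both classes, at a summed 1037 against 21918 to 27872 CPM in fibroblast-like and 697 against 5154 to 12339 CPM in urothelial-like sums. Smooth muscle markers were high in both nuclear classes, at 10446 and 4968 CPM against 442 to 1155 and 9.98 to 164 CPM in cells. The part of either in the clock gene values was not tested. Whether intronic reads were counted for nuclei is not given in the sources used here.

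Age gave no called clock gene. The sex mix, a term in the age fits, went with the gene list (27775 genes in the male and 27998 in the mixed tables) and with depth. That term is thus not one for sex alone. The pools aged 22 and 24 months were set against the 3 younger pools, with the sex mix as a term, and no gene of 11714 in fibroblast-like cells (0% called; 234 at unadjusted p under 0.05; 4 by DESeq2) and none of 12595 in urothelial-like cells (0%; 366; 1 by DESeq2) passed. In fibroblast-like cells Per1, Per2, Per3, Cry1, Cry2, Dbp, Nr1d1 and Nr1d2 had negative log2 differences, of -0.23 to -0.86, with the widest 95% interval for Dbp (-2.13 to 1.48) and that of Nr1d2 at -1.51 to 0.09. Arntl and Clock stood at 0.34 and 0.06. No member's older and younger libraries were disjoint, against 6.45% of genes (3.41% higher, 3.04% lower). Leaving out the 24-month library gave 354 called genes, and Dbp, Nr1d2 and Per3 were then lower at 22 months, by log2 -1.23, -1.49 and -1.70 (adjusted p 0.0212, 0.0201 and 0.00768). With the sex mix as a term, that fit sets 1 male pool of 22 months against 1 male pool of 3 months (fibroblast-like Dbp 74.3 against 187 CPM), and the spread comes only from the 2 libraries of 12 months, so there is no replicate of either age. The 24-month library itself had fibroblast-like Dbp of 181 CPM, beside 187 and 221 CPM in 2 younger libraries.

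In urothelial-like cells Nr1d1 measured 95.5 and 75.2 CPM in the older and 70.3, 59.6 and 54.7 CPM in the younger libraries. The groups did not overlap (log2 0.43, 95% interval 0.11 to 0.75), and the adjusted p was 1.000. Nr1d2 did not overlap either, at 31.4 and 31.5 against 30.6, 25.8 and 22.3 CPM. These 2 of 10 compare with 5.99% of genes with disjoint groups, 3.56% higher and 2.43% lower. The Nr1d2 difference of log2 0.27 had a 95% interval of -0.10 to 0.63. The other 8 genes overlapped, with log2 differences of 0.31 for Per1, 0.17 for Per2, 0.28 for Per3, -0.42 for Cry1, 0.17 for Cry2, -0.28 for Arntl, -0.06 for Clock and 0.36 for Dbp, the last with the widest interval (-1.08 to 1.80). None of the further clock genes was called by age in either class, of 18 tested in fibroblast-like and 20 in urothelial-like cells. Without overlap were Ciart, a repressor of CLOCK and BMAL1, in fibroblast-like cells (mean 3.15 CPM in the older against 6.30 CPM in the younger libraries) and Arntl2 in urothelial-like cells (4.01 against 2.77 CPM), both named after their values were seen.

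In the frozen sections, clock gene levels differed within an age as well as between ages. Per1 measured 69.5 and 20.6 CPM in the 2 sections of 22 months and 142 and 63.7 CPM in the 2 of 14 months. Dbp measured 263 and 124 CPM against 148 and 121 CPM, and Per2 33.4 and 8.86 CPM against 24.8 and 26.4 CPM. The first section of 22 months had the highest Dbp, Nr1d1, Nr1d2, Per2, Per3 and Cry2 and the lowest Arntl of the 4, at 3.37 CPM against 7.87 to 10.1 CPM. The second had the lowest Per1, Per2, Per3 and Cry1. Over the 4 sections Cry1 ranged from 8.20 to 14.4 CPM, Cry2 from 26.2 to 48.1 CPM, Nr1d2 from 58.0 to 86.6 CPM and Clock, which varied least, from 26.4 to 31.6 CPM, with log2 differences by age of -0.32, 0.46, 0.31 and -0.06 and overlapping groups.

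Of the 10 genes, Nr1d1 alone had sections that did not overlap by age, at 164 and 138 CPM at 22 months and 99.3 and 63.1 CPM at 14 months (log2 0.95, SE 0.26, 95% interval 0.25 to 1.65). The adjusted p was 0.225 with edgeR and 0.00228 with DESeq2, and it ranged up to 0.488 over 9 alternatives. No gene of 14974 passed with edgeR (0%; 2481 at unadjusted p under 0.05; 426 by DESeq2), and sections of the 2 ages were disjoint for 50.8% of genes (18.3% higher, 32.5% lower). Of the 21 further clock genes none was called and 5 did not overlap, 2 higher and 3 lower at 22 months; these 5 are named here after their values were seen. Bhlhe41, which encodes the E-box repressor DEC2, measured 39.7 and 30.9 CPM at 22 months and 18.9 and 17.9 CPM at 14 months (log2 1.00, SE 0.12, adjusted p 0.0793), and passed in 5 of 9 alternatives. Nfil3 measured 5.47 and 5.34 CPM against 33.5 and 16.1 CPM (log2 -2.14, SE 0.43, adjusted p 0.177), and passed in 2 of 9. Npas2, which encodes a relative of CLOCK, was lower by log2 -0.72 and Btrc, a ubiquitin ligase subunit gene, by -0.10, neither passing in any alternative. Rorb, which encodes a relative of the receptor from Rora, stood at 26 and 15 UMIs against 4 and 2 UMIs; it was higher by log2 2.49 and did not pass in any of 8 alternatives. Without the first section of 22 months Per2 was called lower at 22 months (log2 -1.43, adjusted p 0.0124); this sets 1 section, at 8.86 CPM, against 2 and takes the spread from the 2 sections of 14 months alone, assuming that the lone section varies like them. Immediate-early genes differed in the same split, at a summed 474 and 353 CPM at 22 months and 3065 and 1197 CPM at 14 months, and the section with the most Per1 was also the one with the most immediate-early RNA. The 6 glucocorticoid-responsive genes summed to 235 and 85.2 CPM at 22 months and 409 and 305 CPM at 14 months, with 5 of the 6 lower and not overlapping. The part of either list was not tested.

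Within the sections, Nr1d1 RNA was more abundant in muscle-high than in urothelial-high spots of 4 of 4 sections, and Dbp RNA in 3 of 4. Spots in the top 25% by share of smooth muscle markers and outside the top 25% by urothelial markers were summed and compared with the reverse set, 235 to 330 spots each. Spots hold several cells of different types, and the muscle-high spots had median depths of 11256 to 15345 UMIs against 32922 to 52957 in the urothelial-high spots. Fibroblast markers were also higher in the muscle-high spots of each section, at 6225, 8173, 4459 and 5785 CPM against 3247, 4278, 3418 and 3119 CPM (the 2 sections of 14 months, then the 2 of 22 months), and their part in the values below was not tested. Nr1d1 measured 144, 86.8, 271 and 234 CPM in the muscle-high spots of the 2 sections of 14 months and the 2 of 22 months, and 56.7, 37.5, 98.1 and 97.9 CPM in the urothelial-high spots. It was higher in 4 of 4 sections, with intervals apart in all 4. Dbp measured 219, 236, 439 and 103 CPM against 80.2, 57.9, 173 and 114 CPM, higher in 3 of 4 with intervals apart in those 3. The second section of 22 months was the exception, and it also differed in Arntl, at 21.4 CPM over muscle against 6.36 CPM over urothelium, where the other 3 had less over muscle (2.50 to 6.24 against 2.97 to 12.1 CPM). Those 3 Arntl values over muscle rested on 11 to 21 UMIs, and intervals lay apart in only 1 of the 3 sections.

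Per1 was higher in the muscle-high spots of 4 of 4 sections, at 171, 86.8, 81.7 and 18.5 against 118, 42.5, 47.0 and 16.6 CPM, with intervals apart in 3. The summed immediate-early genes were lower in the muscle-high spots of each section (248 to 2560 against 393 to 2969 CPM), and their part was not tested. Per2, Per3, Clock and Nr1d2 were each higher over muscle in 1 of 4 sections. Per3, Clock and Nr1d2 were lower over muscle with intervals apart in 2 sections each. For Per2 the intervals lay apart in 1 section in each direction. In the nuclei, where muscle and urothelium come from 1 preparation, Nr1d1 was likewise 119 CPM in smooth-muscle-like and 78.2 CPM in urothelial-like sums, and Dbp 154 and 112 CPM.

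**Figure D5:**
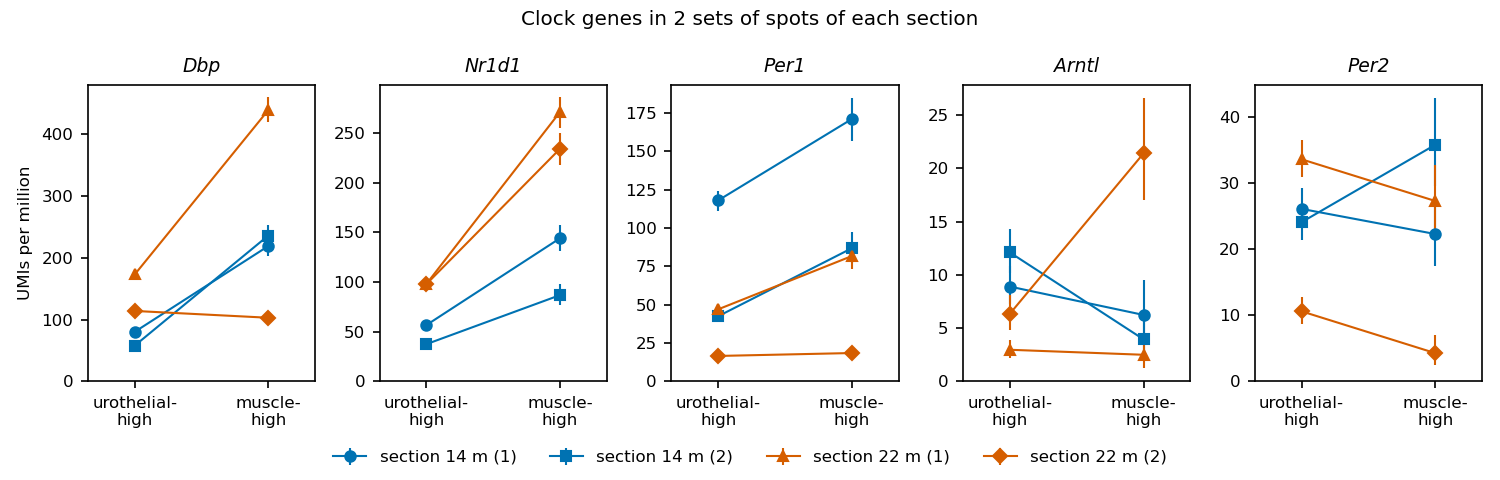
Dbp, Nr1d1, Per1, Arntl and Per2 in urothelial-high and muscle-high spots of 4 sections, in CPM from 0; lines join the 2 sets of a section and bars are 95% Poisson intervals. Nr1d1 lines rise toward muscle in 4 of 4 sections, and the second section of 22 months differs from the rest in Dbp and Arntl.

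Over the fibroblast-like sums of 8 libraries, Dbp and Nr1d1 varied together. Dbp measured 187 CPM at 3 months, 221 and 58.1 at 12 months, 74.3 at 22 months, 181 at 24 months, 294 and 338 in the detrusor-only and detrusor-enriched cells and 281 in the nuclei. The 5 genes of 8625 whose log2(CPM + 1) followed it most closely were Ifit2 (Pearson r 0.94), Sin3a (0.92), Fam76a (0.92), Gbp7 (0.90) and Fnip1 (0.89), and Nr1d1 came 6th (0.88). Nr1d2 (0.80) and Per3 (0.75) stood at ranks 73 and 159, Per1 at -0.01, and Cry1 at -0.52. These are descriptions over 8 points that share library, depth and preparation, and the nuclei and detrusor libraries are among the points with the most Dbp. Arntl averaged too few counts for the same measure.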

How the data were processed

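The cell, nuclei and spatial tables hold UMI counts and the bulk table read counts per gene symbol, as deposited by the authors and raw by their values (whole numbers with different totals). Per the submitters' processing notes, bcl2fastq, Cell Ranger, Space Ranger, Subread and featureCounts were used with build mm10, with no versions given. Per the labels' protocols, bulk RNA was made into polyA-selected libraries. The members and gene lists were chosen with earlier results of these data known.

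Barcodes below 500 UMIs or above 20% mitochondrial counts were removed (the 2 male tables hold no mitochondrial counts), 8 to 660 barcodes per library were removed as likely doublets by simulated doublet scores, and mitochondrial genes were dropped. Cells were clustered (2000 variable genes without the members and lists, 30 components, 15 neighbours, leidenalg 0.10.2 at resolution 1.0) and named from marker lists, and counts were summed per library and class of at least 50 cells.

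Sums and bulk counts were tested with edgeR 4.0.16 (R 4.3.3; robust quasi-likelihood fit, TMM, filterByExpr, two-sided, Benjamini-Hochberg over all genes tested, threshold 0.05), with the library as a block between classes and the sex mix as a term for age. The scripts were tested on simulated data. By rule, each test names the 10 members and up to 6 of the 21 further clock genes, by size of difference among those called without overlap; others named are said to be chosen after their values were seen, and the values of 1 further gene are not reported here. Alternatives were DESeq2 1.42.0, RLE or library-size scaling, no filter on low counts, 1000 UMIs, doublets kept, other terms, and leaving out each library. Intervals of single sums are 95% exact Poisson intervals for counting error only.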

Additional observations from a re-analysis of the deposited data

Results flagged for a closer look

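Of 40 sets of 4 or 5 values tested for a value far from the others, 1 stood out, and chance does this in about 1 in 20 sets. Cry2, a repressor of the clock, measured 93.6 CPM in the fibroblast-like cells of the second 12-month library, against 15.7 to 32.9 CPM in the fibroblast-like cells of the other 4 whole-bladder libraries. In the same sum the blood endothelial markers stood at 118 CPM against 11.8 to 35.1 CPM in the other 4, and the 6 glucocorticoid-responsive genes at 2073 CPM against 714 to 1514 CPM; their part in the Cry2 value was not tested. The gap to the next Cry2 value was 0.779 of the whole range. This class has the fewest cells of the 5, at 145.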

How the results depend on the processing

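Over the alternatives, 1 clock gene value changed sign among those called: Nr1d1 in urothelial-like nuclei, 0.14 with library size alone. That scaling was planned for the bulk comparison and chosen after seeing the data for the others. The addition of unnamed clusters to the class of their best marker list was also chosen after seeing the data. Members called in fibroblast-like nuclei were 2 with DESeq2, RLE factors or doublets kept, 3 with only the 12-month cell libraries and 4 with library size alone. Genes called by age were 4 in fibroblast-like cells with DESeq2 or added clusters and 13 with no filter, and 1 and 74 in urothelial-like cells with DESeq2 and no filter. Between sections, DESeq2 called 426 genes and 1 member, no filter 286 genes and library size alone 66.

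Leaving out 1 library at a time gave 8128 to 9782 genes and 5 to 7 members in bulk, 6958 to 7766 and 3 to 5 between urothelial-like and fibroblast-like cells, 2017 to 3027 and 1 to 2 in fibroblast-like nuclei, 3401 to 4860 and 1 to 4 in urothelial-like nuclei, 0 to 354 and 0 to 3 by age in fibroblast-like cells, 0 to 86 and 0 in urothelial-like cells, and 1 to 256 and 0 to 1 between sections. The cause of these shifts was not tested. The nuclei library cannot be left out. With doublets kept, the second 12-month library had under 50 fibroblast-like cells and dropped out.

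With the bulk replicate number as a replicate block, 10011 genes and 8 members were called, Dbp being added (log2 -0.41, adjusted p 0.00567). Deviations of same-numbered samples correlated at 0.28, 0.37 and -0.04 over 15135 genes, and those of samples with unlike numbers at -0.49 to 0.28. Deviations from the mean of 3 samples are tied to each other, so these values cannot decide whether the numbers pair the samples.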
